A study of Mus musculus with 9 samples.

Results

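The mu class of glutathione transferases is the set of 7 genes Gstm1 to Gstm7, taken by gene symbol from the gene count table of a mouse liver mRNA-seq experiment. All 7 were found among the 24411 genes of the table, and all 7 were among the 11199 genes that passed the filter on low counts and were tested. The mice were on the C57BL/6 background and 3 months of age. All carried floxed Atg7 alleles (Atg7flox/flox), and each group was measured in 3 livers. The control group (cont.) had no Cre. In the group Atg7-KO (Atg7flox/flox;Alb-Cre) the albumin promoter drove Cre, which directs the deletion of Atg7, a gene needed to build autophagosomes, to hepatocytes. In the third group, called S351A (Atg7flox/flox;Alb-Cre;p62S351A/p62S351A), the same deletion was combined with a homozygous knock-in in p62 that lowers the retention of KEAP1 in p62 bodies. The titles define the groups. The genotype entries of S351A replicates 2 and 3 spell the residue number of the second allele differently from the title.

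Glutathione transferases join the tripeptide glutathione to reactive electrophiles, so that the products can be exported from the cell and excreted. The mu-class enzymes are cytosolic, work as dimers and are abundant in mouse liver. Gstm1 is one of the genes used as a readout of NRF2, the transcription factor that KEAP1 holds in check and that binds antioxidant response elements. In livers without autophagy p62 accumulates and competes with NRF2 for KEAP1. The comparison of Atg7-KO with cont. therefore asked what the loss of autophagy did to these mRNAs, and the comparison of S351A with Atg7-KO asked whether they differed when p62 held less KEAP1.

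The 7 genes lie side by side in mm10 within 149074 bases of chromosome 3, between positions 107895821 and 108044894, with no other protein-coding gene between them. In order of position they are Gstm5, Gstm7, Gstm6, Gstm3, Gstm2, Gstm1 and Gstm4. Gstm5 (107895821 to 107898686) is on the plus strand and overlaps the antisense gene 4933431E20Rik, and the other 6 are on the minus strand. Gstm7 spans 107926334 to 107931817, Gstm6 107938847 to 107943749, Gstm3 107963696 to 107969283, Gstm2 107981702 to 107986453, Gstm1 108012255 to 108017973 and Gstm4 108040408 to 108044894.

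The members are close copies, which matters for how reads are assigned to them. The following stretches of 54 coding bases, read from the GENCODE M21 transcripts, show the similarity. They begin at coding base 7 (base 16 in Gstm5), and capitals mark the bases that differ from Gstm1.
Gstm1: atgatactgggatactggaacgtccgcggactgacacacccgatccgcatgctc
Gstm2: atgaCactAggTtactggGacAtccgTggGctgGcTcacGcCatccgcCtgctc
Gstm3: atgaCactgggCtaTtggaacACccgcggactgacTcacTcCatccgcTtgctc
Gstm4: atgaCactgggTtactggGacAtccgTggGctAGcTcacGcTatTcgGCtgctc
Gstm5: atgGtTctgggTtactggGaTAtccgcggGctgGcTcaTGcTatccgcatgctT
Gstm6: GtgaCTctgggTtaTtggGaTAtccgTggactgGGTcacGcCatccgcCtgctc
Gstm7: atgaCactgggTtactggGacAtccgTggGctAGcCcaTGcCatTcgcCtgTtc
Gstm3 differed from Gstm1 at 9 of these 54 bases and the other members at 12 to 15. Over the aligned coding sequence, identity to Gstm1 was 89.4% for Gstm3, 85.9% for Gstm2, 82.6% for Gstm7, 82.3% for Gstm6, 80.1% for Gstm4 and 71.9% for Gstm5.

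Because reads were 75 bases long, each transcript was cut into all its windows of that length and these were looked up in the other members. An identical window was found in another member for 5.76% of the Gstm1 windows (all in Gstm3), 9.78% of those of Gstm3 (in Gstm1 or Gstm6) and 4.62% of those of Gstm6 (all in Gstm3). None of the windows of Gstm2, Gstm4, Gstm5 or Gstm7 occurred in another member. With up to 2 mismatches the shares were 21.4% for Gstm1 and 23.9% for Gstm3. Pseudogene copies, which are not genes of the count table, raised the share of windows with an identical copy elsewhere to 14.8% for Gstm1 and 21.6% for Gstm3. In Gstm5, 11.9% of windows lay in the overlapping antisense gene, and the sources used here do not state whether counting used strand. RSEM divides reads that fit several genes by estimated weights, so the levels of Gstm1, Gstm3 and Gstm6 depend in part on that division.

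The promoter windows shown next are those of Gstm1, which had the highest level, of Gstm3, which rose most, and of Gstm5 and Gstm7, which held the motif searched for. They were taken from RefSeq (build GRCm38.p6), which had a window for each of the 7 members, and run from 250 bases before to 50 after the start site. Capitals mark matches, searched on both strands, to the core of the antioxidant response element, TGACNNNGC, and to the TATA box, TATAAA. The first is Gstm1 (chr3:108017769-108018068, minus strand), the second Gstm3 (chr3:107969125-107969424, minus), the third Gstm5 (chr3:107895604-107895903, plus) and the last Gstm7 (chr3:107931565-107931864, minus).
Gstm1: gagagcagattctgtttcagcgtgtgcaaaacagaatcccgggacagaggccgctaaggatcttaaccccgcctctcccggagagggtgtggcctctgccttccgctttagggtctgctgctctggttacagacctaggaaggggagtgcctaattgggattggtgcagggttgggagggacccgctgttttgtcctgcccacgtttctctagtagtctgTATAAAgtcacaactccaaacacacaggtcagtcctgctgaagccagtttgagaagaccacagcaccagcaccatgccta
Gstm3: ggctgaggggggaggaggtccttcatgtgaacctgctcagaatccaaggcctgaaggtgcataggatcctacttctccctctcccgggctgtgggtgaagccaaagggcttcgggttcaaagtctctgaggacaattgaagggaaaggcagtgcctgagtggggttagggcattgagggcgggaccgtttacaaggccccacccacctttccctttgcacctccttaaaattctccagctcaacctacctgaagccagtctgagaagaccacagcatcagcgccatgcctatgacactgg
Gstm5: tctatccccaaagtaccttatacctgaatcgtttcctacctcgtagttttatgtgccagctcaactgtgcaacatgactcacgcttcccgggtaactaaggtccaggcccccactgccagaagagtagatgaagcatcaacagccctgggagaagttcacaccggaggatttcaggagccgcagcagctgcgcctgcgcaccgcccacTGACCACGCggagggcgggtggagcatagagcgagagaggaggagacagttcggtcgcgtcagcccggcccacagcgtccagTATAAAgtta
Gstm7: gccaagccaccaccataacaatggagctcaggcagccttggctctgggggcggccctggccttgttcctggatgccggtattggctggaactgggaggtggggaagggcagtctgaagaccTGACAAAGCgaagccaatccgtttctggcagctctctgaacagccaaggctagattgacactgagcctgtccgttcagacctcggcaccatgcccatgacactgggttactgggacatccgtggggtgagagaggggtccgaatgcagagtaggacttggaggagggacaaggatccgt
The core TGACNNNGC occurred once each in the printed windows of Gstm5 (42 to 34 bases before the start site) and Gstm7 (129 to 121 bases before it), and these letters were not found in any RefSeq window of Gstm1, Gstm2, Gstm3, Gstm4 and Gstm6. Of all 32851 RefSeq promoter windows 12.4% held it. The wider pattern TGANNNNGC, which includes the core and was in 41.3% of all windows, was also found in Gstm3 and Gstm4. TATAAA, in 13.6% of all windows, stood 30 to 25 bases before the start site of Gstm1 and 40 to 45 bases after that of Gstm5. It was also in a further RefSeq window of Gstm7 that is not printed (start site 107931817), 231 to 226 bases before that start site.

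The libraries held between 713841 and 15426575 assigned reads, and each S351A library was smaller than every other, so depth and the p62 mutation cannot be told apart. Counting errors and floors given here cover counting error only, since the reads carried no molecular identifiers. Levels are given as CPM, the reads of a gene scaled to library size by TMM. Atg7 itself was lower in Atg7-KO (28.8 ± 1.16 CPM, SD, n = 3) than in cont. (48.4 ± 8.20), by a log2 difference of -0.74 (adjusted p 0.00758, edgeR), and S351A livers had 23.0 ± 1.64 CPM. Hepatocyte markers were present in every group. Their summed level was 46366 to 102821 CPM in cont., 31355 to 38636 in Atg7-KO and 29446 to 43367 in S351A, and 5 of 6 were called lower in Atg7-KO than in cont. In bulk liver, fewer cells of a type and less RNA per cell cannot be told apart. By Xist and Y-linked genes, cont. held 2 male livers and each other group 1. The TMM factors were 0.727 to 0.843 in cont. and 1.07 to 1.18 in the other groups, so the choice of scaling bears on each comparison with cont.

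In livers without Atg7 the mu class as a whole was more abundant, and the S351A livers lay between the other groups. Summed over the 7 members, the cont. livers gave 3313, 2880.1 and 3258 CPM. The Atg7-KO livers gave 11560.2, 13542 and 13222 CPM and the S351A livers 8343, 8794 and 9191 CPM. No library of any group overlapped with those of another. The group means were 3150.4 ± 236 CPM (cont.), 12775 ± 1064 (Atg7-KO) and 8776 ± 425 (S351A; SD, n = 3). From the means of the log2 levels, the sum was 4.05-fold higher in Atg7-KO than in cont., 2.79-fold higher in S351A than in cont., and in S351A 0.688 times that in Atg7-KO. Of all assigned reads, the class took 0.248% ± 0.0261 without Cre, 1.45% ± 0.0821 with Atg7 deleted and 0.963% ± 0.0697 with the added knock-in. These folds are descriptions with no test. They rest mainly on Gstm1 and Gstm3, since the other 5 members together reached 359 to 470 CPM in cont., 548 to 621 in Atg7-KO and 427 to 532 in S351A.

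**Figure D1:**
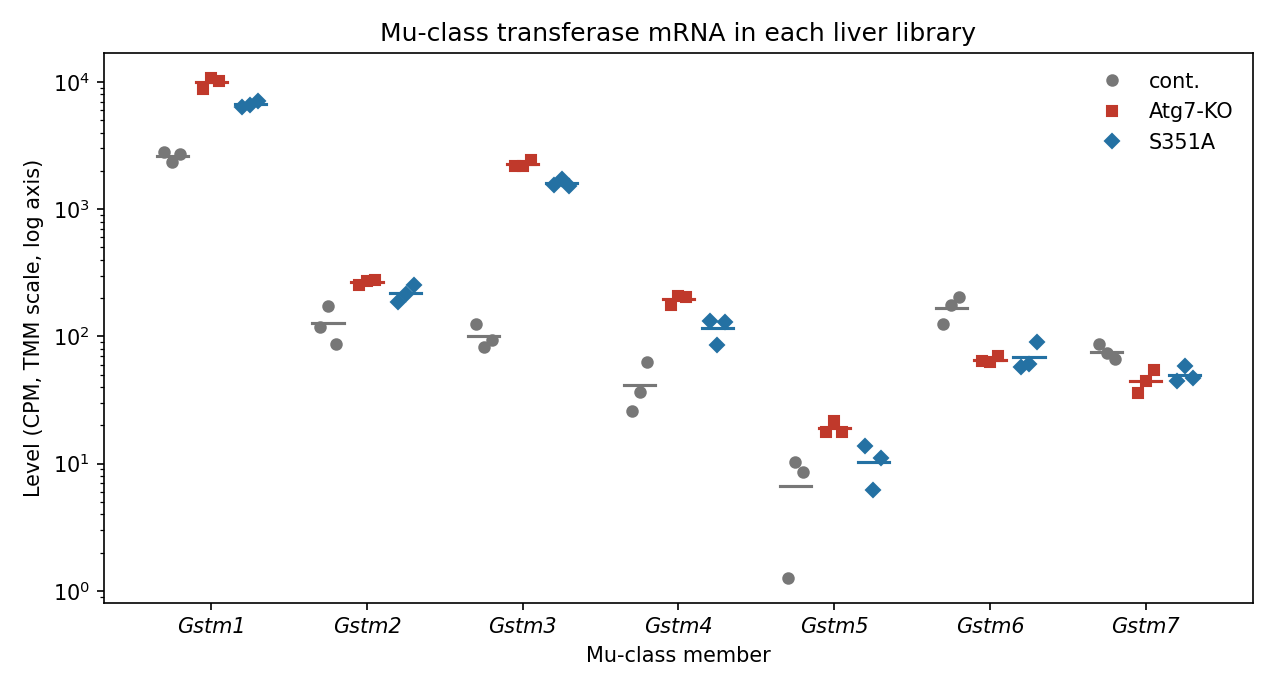
Level of each mu-class member in each of the 9 liver libraries, in CPM on the TMM scale with a log axis. Points are libraries and bars are group means (n = 3). Gstm1 to Gstm5 were higher in every Atg7-KO library than in every cont. library, and Gstm6 and Gstm7 were lower.

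The members did not move together in Atg7-KO against cont. By edgeR's quasi-likelihood test 5 of 7 rose, against a background of 19.9% of the 11199 genes tested, and 2 of 7 fell, against a background of 18.1%. A call needed an adjusted p under 0.05 and a fold change above 1.5. The groups did not overlap for any of the 7, as for 51.6% of all genes tested. The median log2 fold change was 1.35 over the members and -0.031 over all genes.

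Gstm1 was, per length, the most abundant member in each group. Its level was 2828, 2328 and 2736 CPM in cont., 8847, 10742 and 10169 in Atg7-KO, and 6365, 6627 and 7137 in S351A. Every Atg7-KO library was above every S351A library, which in turn was above every cont. library. On the log2 scale Gstm1 rose by 1.91 in Atg7-KO (SE 0.25, adjusted p 1.2e-04, edgeR) and was higher in S351A than in cont. by 1.35 (SE 0.25, adjusted p 0.00192).

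Gstm3, the closest copy of Gstm1, showed the widest change of the class. Its levels of 125, 82.0 and 93.6 CPM in cont. stood against 2165, 2188 and 2432 in Atg7-KO, and against 1544, 1740 and 1523 in S351A. The ranges were far apart from cont. in each other group. The log2 fold change was 4.50 in Atg7-KO against cont. (SE 0.27, adjusted p 7.13e-07), a 22.6-fold rise, and 4.00 in S351A against cont. (SE 0.27, adjusted p 3.38e-06), a 16.0-fold rise. Gstm3 shares 5.66% of its windows with Gstm1. Summing the rows of Gstm1, Gstm3 and Gstm6 into 1, an alternative chosen after seeing the data, gave 2.08 in Atg7-KO against cont. (adjusted p 7.09e-05) and 1.53 in S351A against cont. (adjusted p 9.17e-04). Most of this sum is Gstm1 (in cont. a mean of 2631 CPM, against 100 for Gstm3 and 168 for Gstm6), so it mainly follows Gstm1. The part of read division in the rise of Gstm3 was not tested.

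Gstm4 and Gstm2 also rose, by smaller amounts than Gstm3. Gstm4 was at 26.1, 36.3 and 62.4 CPM in cont., 177, 209.6 and 203 in Atg7-KO, and 133, 85.7 and 129.6 in S351A, with no overlap between any groups. Its log2 fold change was 2.20 in Atg7-KO (SE 0.30, adjusted p 1.6e-04) and 1.45 in S351A against cont. (SE 0.30, adjusted p 0.00428). Gstm2 was at 120, 173 and 87.8 CPM in cont., 254, 273 and 276 in Atg7-KO, and 185, 216 and 254 in S351A. It rose by 1.08 in Atg7-KO (SE 0.26, adjusted p 0.00539) and by 0.79 in S351A against cont. (SE 0.26, adjusted p 0.0378). The S351A call of Gstm2 was lost in 10 of 21 alternatives, in which the adjusted p ranged up to 0.106, among them leaving out any one of the 9 libraries except cont. replicate 2.

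Gstm5 was the least abundant member per length. Its counts were 2, 29 and 96 in cont., 76, 60 and 39 in Atg7-KO and 12, 5 and 9 in S351A, which gave 1.27, 10.2 and 8.60 CPM, then 17.6, 21.5 and 17.8 CPM, then 13.8, 6.21 and 11.1 CPM. The count of 2 in cont. replicate 1 was within the floor of 3 counts (1.91 CPM), and the 95% Poisson interval of that level was 0.154 to 4.59 CPM. Gstm5 rose in Atg7-KO by 1.35 (SE 0.41, adjusted p 0.0205), and this call was lost without Atg7-KO replicate 1 (adjusted p 0.0534), replicate 2 (0.0762) or replicate 3 (0.0533). In S351A against cont. the difference was 0.49 (SE 0.51, adjusted p 0.507, 95% interval -0.62 to 1.60) with overlapping libraries, and it did not pass the threshold. The antisense gene 4933431E20Rik, which overlaps Gstm5, was at 5.20 ± 3.10 CPM in cont. It reached 19.1 ± 1.44 CPM with Atg7 deleted and 16.0 to 23.0 CPM with the added knock-in, and was called higher in both (1.67, adjusted p 0.00196, and 1.74, adjusted p 0.00506). Its part in the Gstm5 value was not tested.

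Gstm6 and Gstm7 went the other way. Gstm6 was at 125, 176 and 204 CPM in cont., 64.3, 62.5 and 70.0 in Atg7-KO, and 57.4, 60.8 and 90.1 in S351A. Every cont. library was above all the others. Gstm6 fell by 1.37 on the log2 scale in Atg7-KO (SE 0.24, adjusted p 8.22e-04) and by 1.28 in S351A against cont. (SE 0.25, adjusted p 0.00254). Gstm6 shares windows with Gstm3 alone among the members, and Gstm3 rose in the same libraries. The part of read division in the fall of Gstm6 was not tested.

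Gstm7 has no window in common with another gene. Its levels were 87.7, 74.3 and 66.0 CPM in cont., 35.7, 44.5 and 54.5 in Atg7-KO, and 44.8, 58.4 and 46.9 in S351A, again with every cont. library on top. Gstm7 fell by 0.76 in Atg7-KO (SE 0.21, adjusted p 0.0126). Against cont., the S351A log2 fold change was -0.60 (SE 0.22, adjusted p 0.0625), which was not past the threshold. The fall in Atg7-KO depended on the scaling, as total library size gave -0.23 (adjusted p 0.403), and it was not called without Atg7-KO replicate 1 (-0.61, adjusted p 0.0752).

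**Figure D2:**
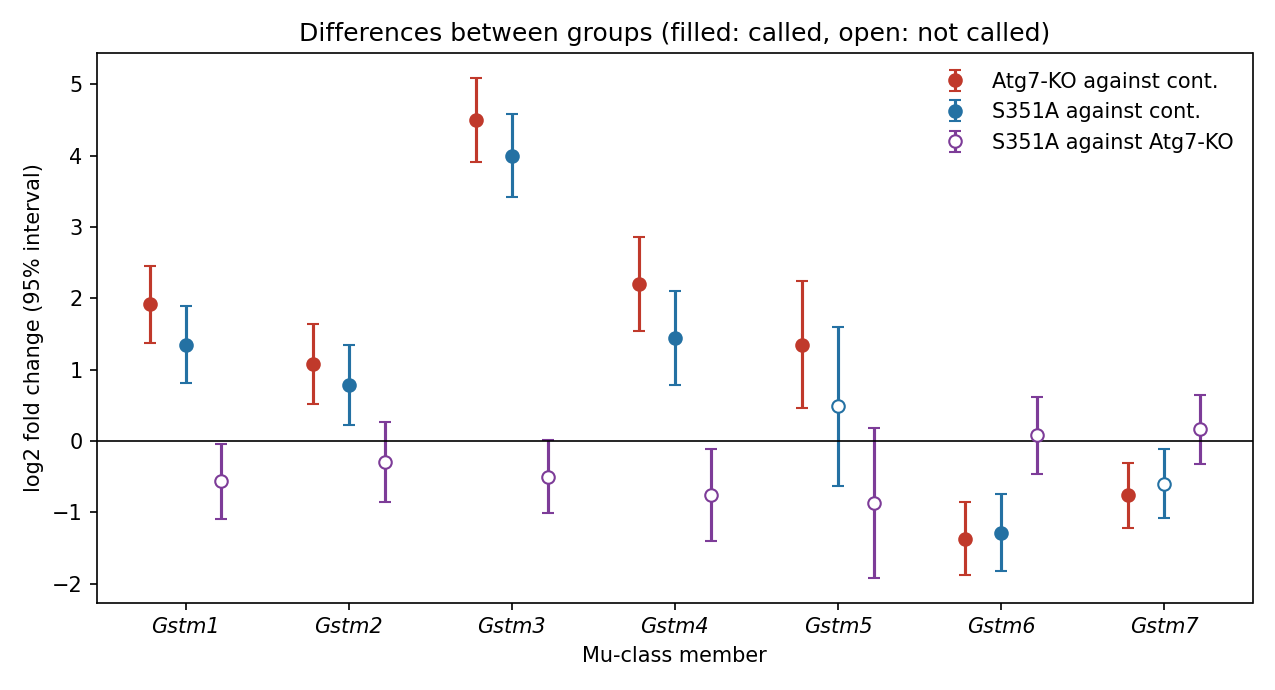
Log2 fold change of each member between groups, with 95% intervals, from edgeR's fit over all 9 libraries. Filled points were called and open points were not. The open points of S351A against Atg7-KO lie between -0.86 and 0.16, and the comparisons share libraries with each other.

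In S351A against cont. 4 members were called higher (Gstm1, Gstm2, Gstm3 and Gstm4; background 15.6% of genes tested) and 1 lower (Gstm6; background 13.0%). The groups did not overlap for 6 of 7 members, all but Gstm5, against 38.0% of all genes. The median log2 fold change was 0.79 over the members and -0.027 over all genes.

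The direct comparison of S351A with Atg7-KO called none of the 7 members in either direction. Here the background was 0% of genes called higher and 0.00893% called lower, which is 1 of 11199 genes, so few genes of any kind passed. Limma-voom also called none of the 7. DESeq2, which called 25 genes higher and 22 lower, called none of the 6 members it gave an adjusted p, and gave none to Gstm5. At an unadjusted p under 0.05 there were 2 members, Gstm1 (0.0383) and Gstm4 (0.0246), both lower in S351A. Of all genes tested, 6.60% were under that level in either direction. The groups did not overlap for Gstm1, Gstm3, Gstm4 and Gstm5, which is 4 of 7 members against 16.9% of all genes.

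The mean levels of the 5 members that rose in Atg7-KO were lower in S351A, though none of these differences was called and the Gstm2 libraries overlapped. The 5 were picked by their rise in the same Atg7-KO libraries, which by itself favours a negative difference. Their intervals set limits on the difference. For Gstm1 the log2 difference of S351A minus Atg7-KO was -0.56 (95% interval -1.09 to -0.036, adjusted p 0.742), for Gstm3 it was -0.50 (-1.01 to 0.014, adjusted p 0.760), and for Gstm4 it was -0.76 (-1.40 to -0.12, adjusted p 0.715). Gstm5 gave -0.86 (-1.91 to 0.19, adjusted p 0.838) and Gstm2 -0.29 (-0.85 to 0.26, adjusted p 0.882). With DESeq2 the adjusted p of Gstm1 was 0.0328 at a log2 difference of -0.57, a fold change under 1.5. The adjusted p of Gstm1 ranged from 0.0328 to 1.00 over the alternatives.

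The 2 members that fell in Atg7-KO had S351A values close to those of Atg7-KO. Gstm6 differed by 0.083 (95% interval -0.45 to 0.62, adjusted p 0.977) and Gstm7 by 0.16 (-0.33 to 0.65, adjusted p 0.931). The median over the members was -0.50, and over all genes 0.012. As these intervals span changes in either direction, they do not show that the levels were alike.

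Compared per length of the longest transcript, the order of the members changed between groups. In cont. the level per kilobase was 2041 ± 207 CPM for Gstm1, followed by 143 ± 34.1 for Gstm6, 119 ± 40.6 for Gstm2, 76.5 ± 17.1 for Gstm3, 55.2 ± 7.95 for Gstm7, 24.4 for Gstm4 (15.3 to 36.6) and 6.18 ± 4.40 for Gstm5. The ranges over libraries overlapped between Gstm6 and Gstm2, Gstm2 and Gstm3, and Gstm3 and Gstm7. Within each cont. library Gstm2 was above Gstm3 (lowest ratio 1.16) and Gstm3 above Gstm7 (lowest ratio 1.16), while Gstm6 was not above Gstm2 in every library (lowest ratio 0.919). In Atg7-KO the order was Gstm1 (7695 ± 754), Gstm3 (1725 ± 113), Gstm2 (238 to 259), Gstm4 (104 to 123), Gstm6 (55.6 ± 3.35), Gstm7 (32.6 ± 6.80) and Gstm5 (17.5 ± 2.03), with no overlap between neighbours. S351A had the same order, from 5205 ± 305 for Gstm1 and 1222 ± 91.2 for Gstm3 down to 9.57 ± 3.55 for Gstm5, and there the libraries of Gstm4 and Gstm6 overlapped. With the union of all annotated exons as the length, Gstm3 and Gstm2 exchanged places in cont., and the libraries of Gstm6 and Gstm7 overlapped in the other groups.

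The make-up of the mu-class mRNA pool, as shares of the members' counts per length, differed accordingly. Gstm3 made up 3.69%, 2.76% and 2.81% of the pool in cont., 18.4%, 15.9% and 18.1% in Atg7-KO, and 18.2%, 19.5% and 16.3% in S351A. Gstm6 made up 4.07%, 6.61% and 6.80% in cont., 0.610%, 0.504% and 0.579% in Atg7-KO, and 0.757%, 0.760% and 1.07% in S351A. For Gstm3 and Gstm6 the cont. livers stood apart from all the others, in opposite directions. Gstm7 took 2.24% ± 0.312 of the cont. pool, 0.328% ± 0.0512 of the Atg7-KO pool and 0.534% ± 0.0767 of the S351A pool (SD, n = 3), again with cont. apart. Gstm1 stayed the main component, at 82.7% ± 2.65, 77.7% ± 1.52 and 76.5% ± 1.13 of the pool in the same order of groups.

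**Figure D3:**
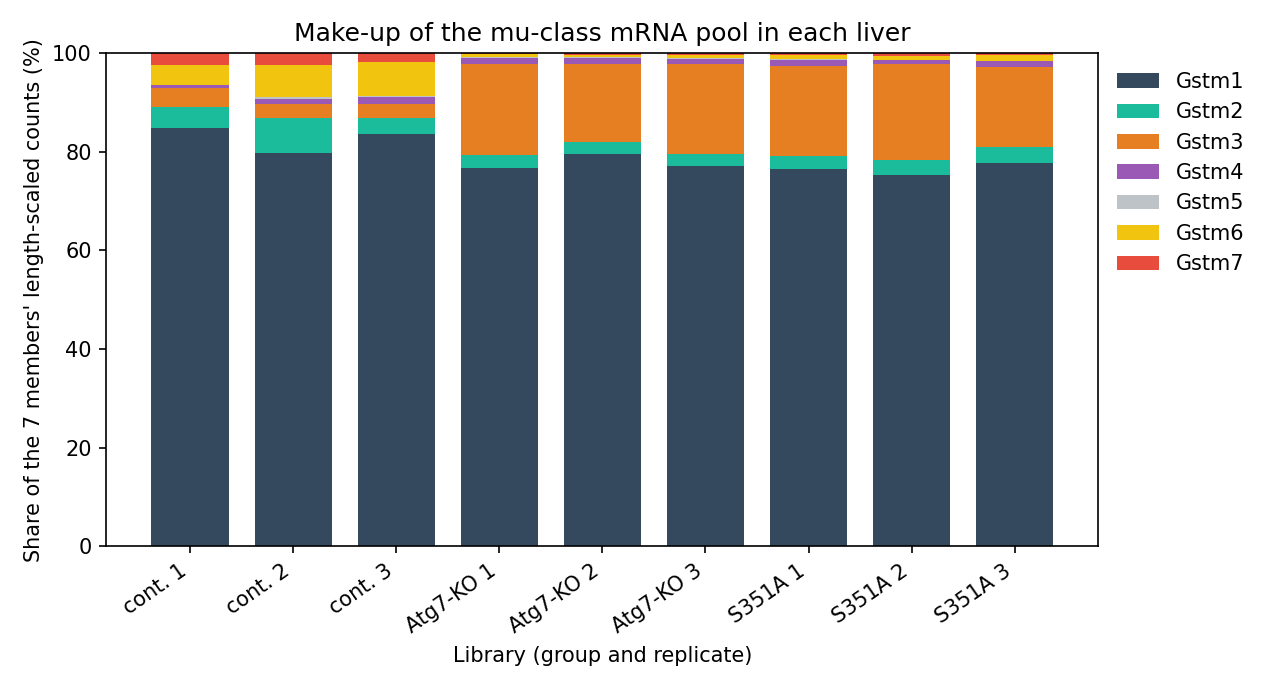
Share of each member in the summed counts of the 7 members, after division by transcript length, in percent for each library (bars stacked to 100%). Gstm3 took 2.76% to 3.69% in cont. libraries and 15.9% to 19.5% in the others, and Gstm6 took 4.07% to 6.80% in cont. and 0.504% to 1.07% in the others.

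Ratios between members within a library do not depend on how libraries are scaled. The log2 ratio of Gstm3 to Gstm1 averaged -4.73 ± 0.205 (cont.), -2.13 ± 0.144 (Atg7-KO) and -2.07 ± 0.151 (S351A; SD, n = 3), a 6.06-fold higher ratio in Atg7-KO than in cont. The ratio of Gstm6 to Gstm1 differed by -3.24 between Atg7-KO and cont., that of Gstm7 to Gstm1 by -2.68 and that of Gstm2 to Gstm1 by -0.78, all lower in Atg7-KO. These 4 of 6 ratios did not overlap between the groups, while 86.2% of the 11198 other genes tested had a ratio to Gstm1 without overlap in this comparison, so nothing particular to the members is read from that count. Each of the 4 was at the smallest p that 3 against 3 libraries allow (exact two-sided permutation test, p = 0.1, adjusted p 0.18 over 18 tests), a design that cannot go below 0.1. The ratios of Gstm4 and Gstm5 to Gstm1 overlapped between Atg7-KO and cont. (exact permutation p = 0.4 and p = 1).

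Between S351A and Atg7-KO the ratio of Gstm3 to Gstm1 was nearly level, at a difference of 0.063 with overlapping libraries (exact permutation p = 0.6). The ratios to Gstm1 were higher in S351A for Gstm7 by 0.74, for Gstm6 by 0.62 and for Gstm2 by 0.26, each without overlap (exact permutation p = 0.1, adjusted p 0.18). These 3 of 6 ratios stand beside 46.9% of the 11198 other genes, and Gstm1 itself differed by -0.56 in this comparison while the levels of Gstm6 and Gstm7 overlapped. For Gstm4 and Gstm5 they differed by -0.22 and -0.31 with overlap. In S351A against cont. 3 of 6 ratios, those of Gstm3, Gstm6 and Gstm7, had no overlap, beside 74.4% of the other genes.

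The genes around the cluster gave a comparison by position. Of the 5 nearest protein-coding genes on each side, 9 are in the count table and 6 were tested. In Atg7-KO against cont. edgeR called 1 higher and 3 lower, with a median of -0.41. The background of 19.9% higher and 18.1% lower among all genes tested holds for this list and those below. The gene called higher was Csf1, which encodes a macrophage growth factor, at 20.1 ± 2.43 CPM in cont. and 72.4 ± 8.02 in Atg7-KO (log2 fold change 1.85, adjusted p 3.38e-05). Ampd2, Gnai3 and Amigo1 had log2 differences of -1.02, -0.93 and -0.75 (adjusted p 0.00587, 0.0384 and 0.0412, all edgeR). The calls differed between tools. DESeq2 called Csf1 and Eps8l3 higher and Ampd2 and Gnai3 lower, while limma-voom called Csf1 higher and Ampd2 and Amigo1 lower. None was called in S351A against Atg7-KO by edgeR or limma-voom, nor by DESeq2 among the 4 it gave an adjusted p. In edgeR 2 of 6 had an unadjusted p under 0.05. For this list and those below, 6.60% of all genes tested were under that level.

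Other glutathione transferases changed in both directions too. Of 19 such genes listed, 15 were tested. In Atg7-KO against cont. 5 of these rose and 8 fell, beside 19.9% and 18.1% of all genes tested, and the median log2 difference was -0.89. The 4 called genes with the widest change were Gsta1, Gstp2, Hpgds and Mgst3. Gsta1, an alpha-class enzyme, had mean levels of 33.9 ± 18.1, 1108 ± 254 and 445 ± 75.1 CPM in cont., Atg7-KO and S351A, in that order (log2 difference 5.06 in Atg7-KO, adjusted p 3.97e-06). Gstp2, of the pi class, was at 35.7 ± 25.8, 565 ± 115 and 306 ± 122 CPM (4.00, adjusted p 2.15e-04), and as a near-identical copy of Gstp1 its share of reads is uncertain, which also holds for Gsta1 and its copy Gsta2. Hpgds, the hematopoietic prostaglandin D synthase, was at 1.52 ± 0.941, 17.8 ± 1.14 and 11.9 ± 4.63 CPM (3.20, adjusted p 5.67e-05). Mgst3, a microsomal transferase, was at 37.0 ± 14.8, 176 ± 49.5 and 77.4 ± 7.38 CPM (2.26, adjusted p 1.47e-04).

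The summed level of the 18 other transferases in the count table was highest in cont., at 7704 to 14273 CPM on the TMM scale. It was 5183 to 6476 with Atg7 deleted and 4387 to 5557 with the knock-in, without overlap between cont. and the rest. TMM factors were lower in cont. than in the other groups, so this gap depends on the scaling. Mgst1 and Gstp1 made up most of the cont. sum (means 5012 and 2749 CPM). Gstp1 was at 2627 and 5059 CPM in the male cont. livers and 560 in the female. The part of sex in the sum was not tested. In S351A against cont. 4 of the 15 tested were called higher and 7 lower, with a median of -0.75. The background there was 15.6% and 13.0% of all genes tested, which also holds for the lists below. In S351A against Atg7-KO edgeR and limma-voom called none, 5 had an unadjusted p under 0.05 in edgeR, and DESeq2 called 3 of 13 with an adjusted p lower (Gsta1, Gsta2 and Mgst3, named after their values were seen).

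**Figure D4:**
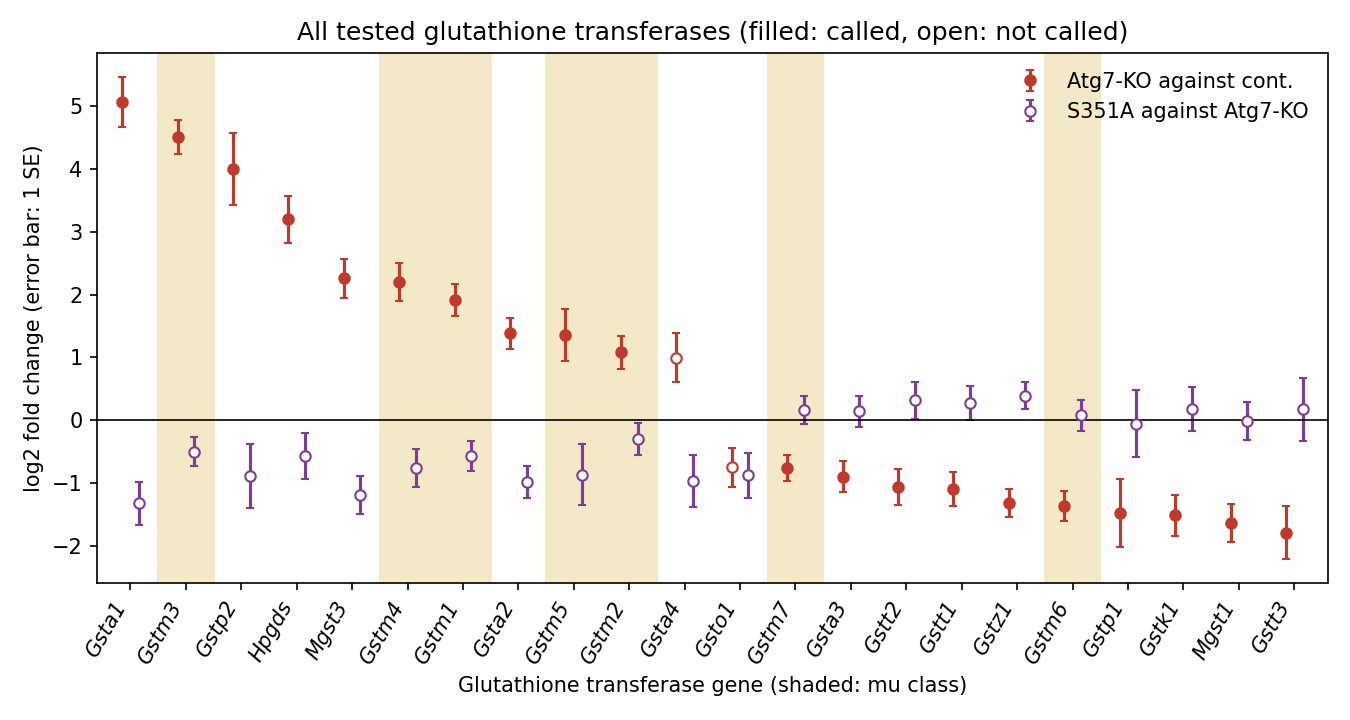
Log2 fold change (error bar 1 SE) of the 22 tested glutathione transferases, ordered by Atg7-KO against cont., with mu-class members shaded. Filled points were called. Gstm3 ranked second behind Gsta1, and no point of S351A against Atg7-KO was called. Both comparisons use the Atg7-KO libraries.

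Genes that supply glutathione or export its conjugates were mostly higher without Atg7, though not every exporter was. Of 14 listed, 13 were tested, of which 10 rose and 1 fell in Atg7-KO against cont. (median 1.30). Slc7a11, the cystine importer, had at most 2 counts in any cont. library and 165 ± 53.9 CPM in Atg7-KO, at least 153-fold higher against the floor of 3 counts per library. In S351A its libraries ranged from 118 CPM in replicate 1 to 13.7 and 7.40 CPM in the others. Ggt1, which cleaves extracellular glutathione, was at 0.877 ± 1.44 CPM in cont., where 2 of 3 libraries were within the floor, and 25.0 ± 4.10 in Atg7-KO (adjusted p 1.26e-04). Abcc4 and Abcc1, both membrane exporters, were at 5.17 ± 2.52 and 2.03 ± 0.917 CPM in cont. and at 204 ± 21.7 and 16.3 ± 3.19 in Atg7-KO (5.52 and 2.77, adjusted p 1.23e-06 and 1.79e-04). The exporters Abcc2 and Abcc3 were not called, with log2 differences of 0.016 and -0.060 (adjusted p 0.959 and 0.870, edgeR). S351A against cont. had 8 called higher and 1 lower (median 1.21). In S351A against Atg7-KO edgeR and limma-voom called none (median -0.65 in edgeR), 7 of 13 had an unadjusted p under 0.05, and DESeq2 called 2 of 10 with an adjusted p lower (Gclc and Gsr, named after their values were seen).

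Among 12 NRF2 readouts that hold no mu-class member, of which Gclc, Gclm and Slc7a11 are also in the list before, 9 rose and none fell in Atg7-KO against cont. (median 1.11). Apart from Slc7a11, the widest changes were 5.00 for Srxn1, which reduces oxidized peroxiredoxins (adjusted p 1.03e-06), 4.46 for the quinone reductase Nqo1 (adjusted p 4.68e-06) and 3.25 for Pgd of the pentose phosphate pathway (adjusted p 4.39e-06). Not called were Ugdh, Hmox1 and Sqstm1, the gene of p62, at 0.70, 0.59 and 0.38 (adjusted p 0.0971, 0.249 and 0.169, edgeR). Against cont., S351A had 5 called higher and none lower (median 0.57). For S351A against Atg7-KO edgeR and limma-voom called none (median -0.75 in edgeR), 8 of 12 had an unadjusted p under 0.05, and DESeq2 called 3 of 11 with an adjusted p lower (Gclc, Pgd and Srxn1). The list was chosen with results of these samples known and is not independent evidence of its direction.

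Markers of other cell types moved with the deletion as well, and their part in the mu-class values was not tested. The ductular list summed to 47.2 to 83.3 CPM in cont., 821 to 1206 in Atg7-KO and 721 to 1198 in S351A, with 5 of 5 tested genes called higher in Atg7-KO. The macrophage list (239.7 to 356, 539.6 to 656 and 469 to 697 CPM) and the stellate and matrix list (254 to 516, 1218 to 1680 and 1119 to 1624 CPM) each had 5 of 7 called higher. All 4 proliferation markers were called higher, beside 19.9% of all genes tested. Of the tested endothelial markers 1 of 5 was called higher and 2 lower, of the lymphocyte markers 1 of 2 higher, and of the erythroid markers 1 of 2 lower, Hba-a1 being at 0 in every library. None of the tested markers was called in S351A against Atg7-KO by edgeR or limma-voom. DESeq2 called none either, but gave an adjusted p to only 2 of the 6 ductular, 4 of the 7 macrophage, 4 of the 7 stellate and matrix, 2 of the 5 endothelial and 1 of the 3 erythroid markers, and to 0 lymphocyte and 0 proliferation markers.

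By pattern over the 9 libraries, the tested genes outside the class most like the summed members were Gss, Mvp, Lilrb4a, Il10rb and Parp14, from 8808 genes with a mean of at least 10 CPM. The measure was the root mean square difference of centred log2 CPM, which was 0.176 for Gss, 0.177 for Mvp, 0.180 for Lilrb4a, 0.190 for Il10rb and 0.205 for Parp14. Gss, the glutathione synthetase, was 1.69 higher on the log2 scale in Atg7-KO than in cont., a pattern it was chosen for. For comparison, the same measure was 0.060 for Gstm1 itself, 0.37 for Gstm4, 0.47 for Gstm2, 0.78 for Gstm5, 1.19 for Gstm3 and Gstm7 and 1.48 for Gstm6. Most of the sum is Gstm1, and the 5 genes were picked for their closeness, so these values are a description.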

How the data were processed

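The libraries were made from poly(A) RNA of mouse liver (9 animals) and read once over 75 bases. According to the study's methods and the submitters' processing notes, the authors used Trim Galore, aligned with STAR to mm10 and deposited expected counts per gene from RSEM. Versions, annotation and strand setting are not given in the sources used here. The labels name an RNeasy kit and the methods TRIzol for extraction. The study calls the replicates biological.

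The deposited expected counts were rounded and analysed with edgeR 4.0.16 in R 4.3.3 (limma 3.58.1). The function filterByExpr (minimum count 10, minimum total 15) kept 11199 genes, and libraries were scaled by TMM. The quasi-likelihood fit used the group as its only term and all 9 libraries, p-values were adjusted by Benjamini-Hochberg over all genes tested, and calls needed adjusted p under 0.05 and a fold change above 1.5. Log2 CPM used a prior count of 2. SEs are those implied by the test. The floor was 3 counts per library. Ratios between members used rounded counts plus 0.5 and exact permutation tests. Lengths, coordinates and 75-base windows came from GENCODE M21, in which 23376 of the 24411 symbols were found. The fit was tested on simulated data.

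From each further gene list, the counts called and at most 4 called genes with the widest change and at least 10 CPM in the higher group were reported. The neighbours are the 5 nearest protein-coding genes on each side. The members and lists were chosen with earlier results of these data known. Alternatives included RLE, total library size, leaving out the 20 genes with most counts, other filters, DESeq2 1.42.0, limma-voom, replicate block, sex, thinning and each library left out. Between replicates of a group, chi-square per gene against counting noise alone was 2.29 to 117, so no pair agreed within sampling noise. This cannot tell separate animals from separate libraries of the same animal.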

Additional observations from a re-analysis of the deposited data

How the results depend on the processing

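Scaling by total library size shifted the all-gene median log2 difference by 0.55 (Atg7-KO against cont.) and 0.50 (S351A against cont.), and turned 2226 higher and 2027 lower calls into 4312 and 796, and 1748 and 1460 into 3541 and 510. Without the 20 genes with most counts the calls were 3455 and 1077, and 2775 and 717. Under these scalings the summed members rose by 2.56 and 2.38 in Atg7-KO (2.02 with TMM) and by 1.97 and 1.81 in S351A against cont. (1.48 with TMM), and 1 member, Gstm6, was called lower in Atg7-KO instead of 2. Thinning to 713835 counts also left 1 called lower. No filter and sex as a covariate called 2 members lower in S351A against cont. instead of 1, adding Gstm7 (adjusted p 0.0422 and 0.0461). In S351A against Atg7-KO, DESeq2 called 25 genes higher and 22 lower, no filter 61 and 37, and neither a member.

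Leaving out each library in turn gave 1 to 2 members called lower in Atg7-KO (1 without Atg7-KO replicate 1) and 1 to 2 in S351A against cont. (2 without cont. replicate 3). Such omissions ended the S351A call of Gstm2 for 8 of 9 libraries, the Atg7-KO call of Gstm5 for 3 and that of Gstm7 for 1. Gstm6 in S351A against Atg7-KO ranged from -0.15 (without S351A replicate 3) to 0.20. The ratio to Gstm1 changed sign only where groups overlapped. For Gstm5 in Atg7-KO against cont. it ranged from -0.96 to 0.54 over the libraries left out, with 0.54 for cont. replicate 2, 0.29 for cont. replicate 3 and 0.015 for Atg7-KO replicate 3. In S351A against cont. the range for Gstm5 was -1.26 to 0.23 (cont. replicate 2 left out) and for Gstm4 -0.15 (cont. replicate 1 left out) to 0.50. For Gstm3 in S351A against Atg7-KO it was -0.019 to 0.14, with -0.019 for Atg7-KO replicate 2 left out and -0.0055 for S351A replicate 2. The cause of these shifts was not tested. No other log2 fold change of a member changed sign. Gstm5 could not be fitted where 10 counts were needed in every library.

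Replicate numbers are shared between groups, and 5 of 9 same-numbered pairs of libraries deviated together (r above 0.1; range -0.041 to 0.31), against 2 of 18 pairs with other numbers (-0.26 to 0.21). Of the 9 libraries, 6 correlated best with their own number. All 3 same-numbered pairs of cont. and S351A were above 0.1 (0.160, 0.175 and 0.235), which was not so for every pair with Atg7-KO. The numbers may pair these groups, but they also go with sex. By Xist and Y-linked genes, replicate 1 was male and replicate 2 female in all 3 groups, so there a pairing and shared sex cannot be told apart. Replicate 3 was male in cont. and female in the other groups. The 2 pairs with other numbers above 0.1 each joined 2 female livers. With the replicate block the members called were 5 higher and 2 lower in Atg7-KO against cont., 4 and 1 in S351A against cont., and 0 and 0 in S351A against Atg7-KO, the same counts as without it. In S351A a single count was worth 1.15 to 1.24 CPM, and Gstm5 had 5 to 12 counts there.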

Other observations

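Gstm2 was lower in every male library than in every female library of the same group, in all 3 groups. In cont. the males were at 120 and 87.8 CPM and the female at 173, in Atg7-KO the male was at 254 and the females at 273 and 276, and in S351A the male was at 185 and the females at 216 and 254. Sex was read from Xist and Y-linked genes, and the gene was chosen after its values were seen. The same order held for 668 of the 11199 genes tested (5.96%) and for no other member, and the opposite order for 525 genes (4.69%) and no member, so it is a description of 9 libraries with no test.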
